A study of Mus musculus with 9 samples.

Results

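The 33 astrocyte genes described here were taken from a table of RNA levels in the mouse midbrain, by matching the gene symbols of a fixed list to the rows of the table. All 33 symbols were found, among 24487 rows. The libraries came from C57BL/6 mice and fall into 2 groups, whole midbrain (5 libraries) and midbrain dopaminergic neurons (4 libraries). The labels give no treatment and no genotype beyond the strain. The name of the deposited table calls the dopaminergic samples bacTRAP, a method in which tagged ribosomes, made in chosen cells from a transgene on a bacterial artificial chromosome, are pulled down with the RNA they carry. The sources used here do not say which promoter drove such a transgene, how old the mice were or how many animals a library holds, so p-values measure the spread between these libraries, which may be technical. Levels are in FPKM, a count of fragments divided by the length of the transcript and by the number of mapped fragments, and can therefore be compared between genes of different length.

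Astrocytes are the glial cells that take up glutamate and other transmitters released at synapses, clear potassium, move water and bicarbonate across their end feet on blood vessels, and supply neurons with lipoproteins and glutamine. They are joined to each other by gap junctions and secrete much of the material between cells. Dopaminergic neurons of the midbrain lie among astrocytes, oligodendrocytes, microglia and blood vessels, so RNA purified from these neurons may carry RNA of each of them, and some genes used to mark astrocytes are also expressed in neurons.

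The labels were checked on markers that are no astrocyte genes. Th, which encodes the rate-limiting enzyme of dopamine synthesis, stood between 43.7 and 51.5 FPKM in whole midbrain and between 1491 and 1722 FPKM in the dopaminergic libraries. All 8 dopaminergic markers and 5 of 6 general neuron markers rose (4 of 6 when values were rescaled to a common sum). Of all genes tested, as described below, 38.3% were called higher, and 17.2% on the common sum. Whole midbrain library 2 stood apart from its group: its FPKM values summed to 409130, against 309275 to 313252 in the other 4 and 506466 to 521822 in the dopaminergic libraries. Taking the lowest value shared by intron-free receptor genes as 1 read, depth came to an estimated 16.2 to 33.5 megareads in whole midbrain and 47.3 to 62.5 megareads in the dopaminergic libraries. Between 97.7% and 99.3% of the values above 0 of each whole midbrain library carried more than 6 significant digits, and none of those of the dopaminergic libraries did, so a difference in how the 2 groups of values were written out cannot be told apart from the groups themselves.

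All 33 astrocyte genes were lower in the dopaminergic libraries, and each of the 4 dopaminergic libraries lay below each of the 5 whole midbrain libraries for all 33. Most of them kept between 2% and 10% of their whole midbrain level, and 7 kept more than 20%, or 2 when each library was rescaled to a common sum of FPKM. Across all 13106 genes tested, with a mean of at least 1 FPKM, 36.0% were called lower (limma on log2(FPKM + 1), Benjamini-Hochberg adjusted p under 0.05), 38.3% were called higher, and 31.8% showed the same lack of overlap. A fall of at least 2-fold on that scale was seen for 31 of the 33 astrocyte genes, the exceptions being Cst3 and Id4, against 16.7% of all genes. On the common sum all 33 fell at least 2-fold, with log2 changes of -1.31 for Cst3 and -1.59 for Id4. The median log2 change of the 33 was -3.24, from -4.72 for Apoe to -0.66 for Cst3, while the median of all genes tested was 0.04. In bulk samples, fewer cells of a type and less RNA per cell cannot be told apart, nor, if the dopaminergic RNA was pulled down, can either be told from astrocyte RNA carried over in that step.

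**Figure D1:**
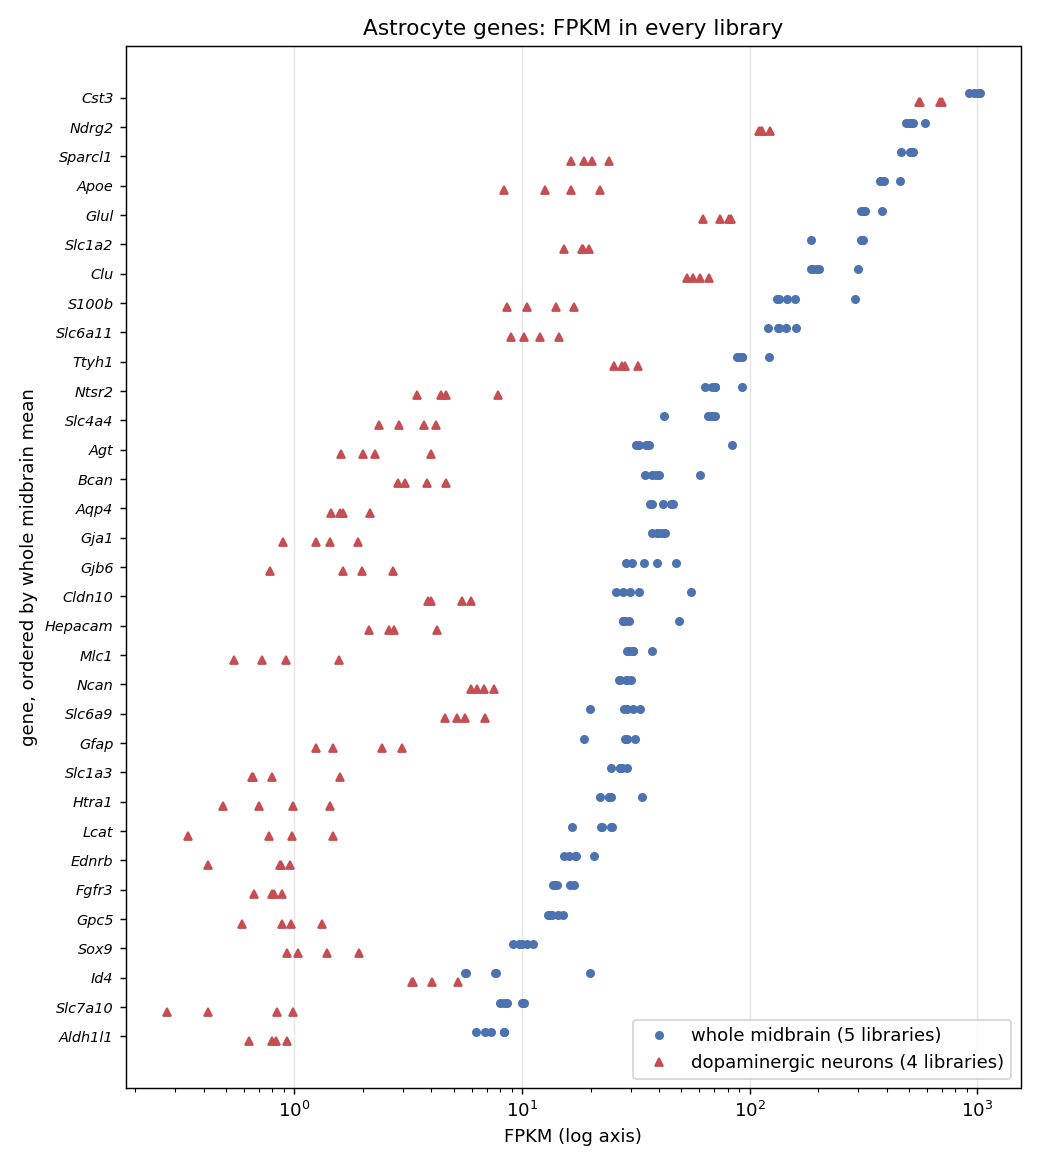
FPKM (log axis) of the 33 astrocyte genes, ordered by whole midbrain mean, with 1 circle for each of 5 whole midbrain libraries and 1 triangle for each of 4 dopaminergic libraries. The triangles lie left of the circles for every gene, with the narrowest gaps for Cst3 and Id4.

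The percent left, the FPKM of a dopaminergic library as a percent of the whole midbrain mean, had a median over the 33 genes of 5.42, 7.0, 6.06 and 9.49% in dopaminergic libraries 1 to 4, or 6.99% ± 1.79 (SD, n = 4). It was under 5% for 10 genes, under 10% for 22, between 10 and 20% for 4 and above 20% for 7. On the common sum these counts were 19, 25, 6 and 2, the last being Cst3 and Id4, and with either quantile normalization or upper-quartile scaling 4 genes were above 20%. No gene was listed at 0 in any library. The mean dopaminergic level was under 1 FPKM for 9 genes, and 4 of these were under 1 FPKM in every dopaminergic library.

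**Figure D2:**
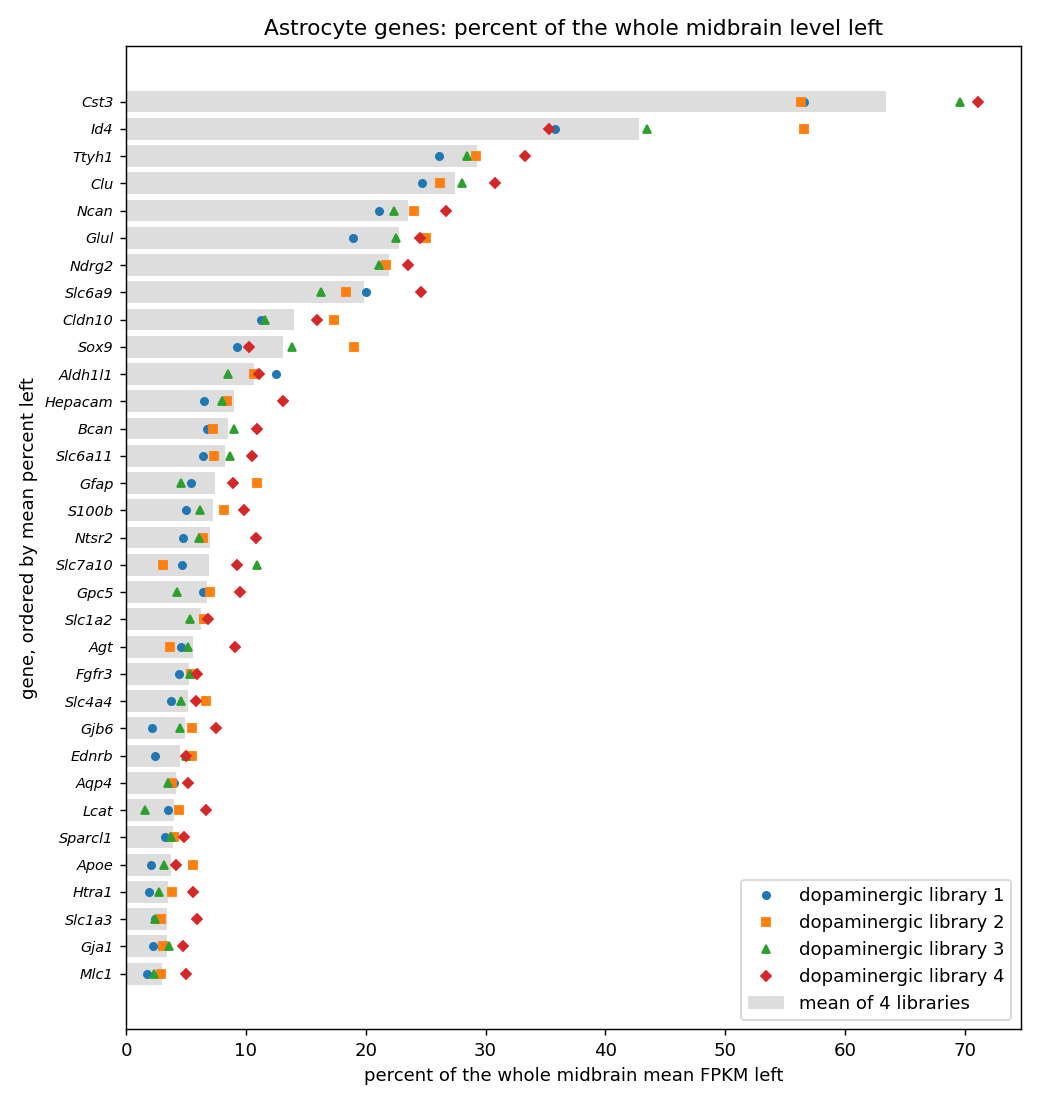
Percent of the whole midbrain mean FPKM left in the dopaminergic libraries, for the 33 astrocyte genes ordered by their mean; bars are means of 4 libraries and symbols are the single libraries. The mean ran from 2.98% for Mlc1 to 63.4% for Cst3.

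The genes of glutamate uptake and recycling all fell. Slc1a2 encodes GLT-1, the main glutamate transporter of astrocytes. It stood at 313, 186, 314, 307 and 311 FPKM in whole midbrain libraries 1 to 5 and at 18.4, 18.5, 15.3 and 19.6 FPKM in dopaminergic libraries 1 to 4. Whole midbrain library 2 was the low library of its group, yet far above every dopaminergic one. The log2 change was -3.90 ± 0.16 (SE; limma adjusted p = 1.86e-08), and 6.26% ± 0.651 (SD, n = 4) of the whole midbrain level was left. Slc1a3 encodes GLAST, the second glutamate transporter of astrocytes. Its levels were 27.0, 24.5, 29.1, 26.9 and 27.4 FPKM in whole midbrain, and 0.652, 0.795, 0.656 and 1.59 FPKM in the dopaminergic libraries, of which library 4 was the high one. Slc1a3 fell by 3.89 ± 0.13 (SE) on the log2 scale (limma adjusted p = 5.80e-09).

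Glul encodes glutamine synthetase, which turns the glutamate taken up into glutamine. Its levels were 323, 383, 316, 317 and 309 FPKM in whole midbrain, where it was among the most abundant of the 33 genes. In the dopaminergic libraries it stood at 62.5, 82.6, 74.3 and 80.8 FPKM, the third highest mean of the 33. It fell by 2.12 ± 0.11 (SE) on the log2 scale (limma adjusted p = 6.36e-08), and 22.8% ± 2.76 (SD, n = 4) was left, against 3.42% ± 1.67 for Slc1a3.

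The transporters of GABA, glycine and small neutral amino acids fell by unequal amounts. Slc6a11, the GABA transporter GAT-3, stood at 144, 121, 161, 135 and 133 FPKM in whole midbrain and at 8.95, 10.2, 12 and 14.6 FPKM in the dopaminergic libraries. Slc6a9, the glycine transporter GlyT1, stood at 30.7, 19.8, 28.1, 28.9 and 32.9 FPKM in whole midbrain and at 5.63, 5.16, 4.57 and 6.91 FPKM in the dopaminergic libraries. The share left was 8.24% ± 1.77 for Slc6a11 and 19.8% ± 3.54 for Slc6a9 (SD, n = 4). Slc7a10, the transporter Asc-1 for serine, glycine and alanine, was a low gene throughout, at 9.04 ± 1.0 FPKM in whole midbrain (SD, n = 5) and 0.629 ± 0.336 FPKM in the dopaminergic libraries (SD, n = 4). The log2 changes were -3.50 for Slc6a11, -2.14 for Slc6a9 and -2.64 for Slc7a10, with limma adjusted p-values of 1.13e-08, 5.78e-07 and 9.66e-08.

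Of the 5 genes of water, ion and volume control, 4 kept under 10% and Ttyh1 kept more than 20%. Aqp4, the water channel of astrocyte end feet, stood at 41.8, 37.1, 36.3, 45.0 and 46.2 FPKM in whole midbrain and at 1.63, 1.59, 1.45 and 2.14 FPKM in the dopaminergic libraries. The log2 change of Aqp4 was -3.97 ± 0.10 (SE, limma adjusted p = 1.19e-09). Mlc1 encodes a membrane protein of end feet that is mutated in a leukoencephalopathy with cysts. It stood at 30.8, 37.2, 30.7, 29.5 and 29.1 FPKM in whole midbrain and at 0.544, 0.922, 0.719 and 1.56 FPKM in the dopaminergic libraries, the smallest share left of all 33 genes, 2.98% ± 1.41 (SD, n = 4). Hepacam encodes GlialCAM, the adhesion protein that binds the Mlc1 protein. It went from 32.5 ± 9.18 FPKM (SD, n = 5) to 2.93 ± 0.918 FPKM (SD, n = 4), with 9.02% ± 2.83 left, or 10.3% of the mean without whole midbrain library 2.

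Slc4a4, the sodium bicarbonate cotransporter, fell from 63.1 ± 11.9 FPKM in whole midbrain to 3.28 ± 0.83 FPKM, with 5.20% ± 1.31 left. Ttyh1, a membrane protein of the tweety family that has been linked to volume-regulated anion currents, went the least far in this group. It stood at 92.3, 121, 92.4, 87.8 and 90.2 FPKM in whole midbrain and at 25.3, 28.3, 27.6 and 32.2 FPKM in the dopaminergic libraries. Its 4 dopaminergic libraries lay close together at 26.2, 29.2, 28.5 and 33.3% of the whole midbrain mean, and the log2 change was -1.73 ± 0.11 (SE; limma adjusted p = 3.05e-07).

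The junction genes all fell, Gja1 and Gjb6 further than Cldn10. Gja1 encodes connexin 43, the main gap junction protein of astrocytes, and stood at 39.1, 37.4, 42.4, 41.3 and 39.4 FPKM in whole midbrain. In the dopaminergic libraries it stood at 0.887, 1.24, 1.43 and 1.91 FPKM, with 3.42% ± 1.06 left (SD, n = 4) and a log2 change of -4.13 ± 0.11 (SE; limma adjusted p = 1.74e-09). Gjb6, which encodes connexin 30, its partner in astrocyte gap junctions, went from 36.0 ± 7.61 FPKM (SD, n = 5) to 1.78 ± 0.803 FPKM (SD, n = 4), with 4.93% ± 2.23 left. Cldn10, a member of the claudin family of tight junction proteins, stood at 26.0, 55.0, 32.6, 27.8 and 29.9 FPKM in whole midbrain, where library 2 was far above the others. It stood at 3.87, 5.96, 3.97 and 5.47 FPKM in the dopaminergic libraries, so that 14.0% ± 3.09 was left, or 16.6% of the mean of the other 4 whole midbrain libraries.

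The 3 lipoprotein genes differed widely in what was left. Apoe, the main lipid carrier secreted by astrocytes, was at 385, 456, 373, 389 and 377 FPKM in whole midbrain and at 8.29, 22.1, 12.7 and 16.4 FPKM in the dopaminergic libraries. Dopaminergic library 1 was the low one, and the fall of Apoe was the largest of the 33 genes on the log2(FPKM + 1) scale, -4.72 ± 0.22 (SE; limma adjusted p = 3.68e-08). As a plain ratio of means, its fall of 26.6-fold was smaller than the 33.6-fold of Mlc1, since the added 1 shrinks the change of low genes more. Clu, which encodes clusterin, a secreted chaperone also called apolipoprotein J, was at 186, 299.9, 202, 189 and 197 FPKM in whole midbrain. It was at 53.1, 56.3, 60.3 and 66.2 FPKM in the dopaminergic libraries, which is 27.4% ± 2.63 of the whole midbrain level (SD, n = 4). Lcat, the enzyme that esterifies cholesterol on lipoproteins, fell from 22.2 ± 3.31 FPKM to 0.892 ± 0.470 FPKM. In whole midbrain Apoe was above Clu in every library, and in the dopaminergic libraries Clu was above Apoe in every library.

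Among the 7 genes of secreted and matrix proteins, 5 kept under 10%, Ncan kept more than 20% and Cst3 kept more than 50%. Sparcl1, known as hevin, a secreted protein that promotes the formation of synapses, was at 518, 465, 514, 505 and 521 FPKM in whole midbrain and at 16.4, 20.3, 18.8 and 24.2 FPKM in the dopaminergic libraries. This was a log2 change of -4.61 ± 0.11 (SE; limma adjusted p = 8.89e-10), with 3.94% ± 0.649 left. Bcan and Ncan encode brevican and neurocan, chondroitin sulphate proteoglycans of the matrix around neurons. Bcan went from 42.3 ± 10.4 FPKM to 3.59 ± 0.804 FPKM. Ncan, lower than Bcan in whole midbrain, stood at 30.3, 26.7, 28.7, 27.0 and 29.0 FPKM there and at 5.98, 6.81, 6.34 and 7.55 FPKM in the dopaminergic libraries, where it was the higher of the pair. The share left was 8.48% ± 1.90 for Bcan and 23.5% ± 2.40 for Ncan (SD, n = 4).

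Gpc5, a glypican of the cell surface, fell from 13.9 ± 0.898 FPKM to 0.939 ± 0.300 FPKM, and Htra1, a secreted serine protease, from 25.7 ± 4.67 FPKM to 0.903 ± 0.413 FPKM. Agt encodes angiotensinogen, which the brain makes mainly in astrocytes. It was at 32.6, 83.6, 34.9, 31.7 and 36.3 FPKM in whole midbrain, with library 2 far above the others, and at 2.0, 1.61, 2.26 and 3.98 FPKM in the dopaminergic libraries. The log2 change of Agt was -3.63 ± 0.29 (SE; limma adjusted p = 1.49e-06), and 5.62% ± 2.39 was left, or 7.27% of the mean without whole midbrain library 2.

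Cst3, which encodes cystatin C, a secreted inhibitor of cysteine proteases, was the most abundant of the 33 genes in both groups and fell the least. It was at 1014, 1019, 1028, 920.3 and 965 FPKM in whole midbrain and at 559, 557, 688 and 703 FPKM in the dopaminergic libraries. The groups did not overlap, and the log2 change was -0.66 ± 0.12 (SE; limma adjusted p = 0.000444), with 63.4% ± 8.05 left. Its median rank among all genes went from 17 in whole midbrain to 146.5 in the dopaminergic libraries. Since the other genes fell further, Cst3 made up 21.6 to 24.0% of the summed FPKM of the 33 genes in whole midbrain and 56.9 to 63.8% in the dopaminergic libraries.

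The genes of cytoskeleton, calcium binding and enzymes include the most used astrocyte markers. Gfap, the intermediate filament protein of astrocytes, was at 28.5, 28.5, 18.7, 31.2 and 29.0 FPKM in whole midbrain and at 1.47, 2.96, 1.25 and 2.43 FPKM in the dopaminergic libraries. Whole midbrain library 3 was low, and dopaminergic libraries 2 and 4 were the higher ones, at 10.9 and 8.93% of the whole midbrain mean, against 5.42 and 4.58% in libraries 1 and 3. The log2 change of Gfap was -3.24 ± 0.19 (SE; limma adjusted p = 1.97e-07). S100b, a calcium-binding protein, was at 158, 291, 132, 134 and 145 FPKM in whole midbrain and at 8.62, 14.1, 10.5 and 16.9 FPKM in the dopaminergic libraries, with 7.29% ± 2.13 left.

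Aldh1l1, the folate enzyme used as a marker of astrocytes across brain regions, was a low gene, at 7.42 ± 0.902 FPKM in whole midbrain and 0.794 ± 0.124 FPKM in the dopaminergic libraries, with 10.7% ± 1.68 left. Ndrg2, a protein of the N-myc downstream regulated family, was among the most abundant of the 33 genes. It was at 504, 589.8, 521, 511 and 485 FPKM in whole midbrain and at 112, 113, 110.3 and 123 FPKM in the dopaminergic libraries. The 4 dopaminergic values were close to each other, 22.0% ± 1.08 of the whole midbrain level (SD, n = 4), and the log2 change was -2.18 ± 0.088 (SE; limma adjusted p = 1.66e-08).

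The 3 receptors fell to between 4% and 8% of their whole midbrain level. Fgfr3, a receptor of fibroblast growth factors, went from 15 ± 1.46 FPKM to 0.666, 0.814, 0.796 and 0.882 FPKM in the dopaminergic libraries, all of them under 1 FPKM. Ntsr2, the low-affinity neurotensin receptor, went from 72.9 ± 11.3 FPKM to 5.10 ± 1.92 FPKM, with 7.0% ± 2.63 left. Ednrb, the endothelin receptor type B, went from 17.3 ± 2.06 FPKM to 0.777 ± 0.245 FPKM, with 4.49% ± 1.41 left. The log2 changes were -3.16, -3.63 and -3.37, with limma adjusted p-values of 1.70e-09, 6.53e-08 and 7.14e-09.

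Both transcription regulators were low in every library. Sox9, a factor that astrocytes need to form, was at 11.2, 9.11, 9.95, 10.5 and 9.67 FPKM in whole midbrain and at 0.929, 1.91, 1.40 and 1.03 FPKM in the dopaminergic libraries, a log2 change of -2.27 ± 0.12 (SE; limma adjusted p = 1.09e-07). Id4, an inhibitor of basic helix-loop-helix factors, was at 7.71, 19.8, 5.60, 7.62 and 5.66 FPKM in whole midbrain and at 3.32, 5.25, 4.04 and 3.28 FPKM in the dopaminergic libraries. Library 2 carried much of the whole midbrain mean of Id4: 42.8% ± 9.92 was left of the mean of all 5 libraries and 59.7% of the mean of the other 4. The log2 change of Id4 was -0.92 ± 0.31 (SE; limma adjusted p = 0.0206), and without whole midbrain library 2 it was -0.63 (adjusted p = 0.00194). The call was lost with quantile normalization (-0.73, adjusted p = 0.0620), without dopaminergic library 1 (-0.86, adjusted p = 0.0552) and without dopaminergic library 4 (-0.85, adjusted p = 0.0560). Over all alternatives the limma adjusted p of Id4 ran from 0.000263 to 0.0620.

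For 9 of the 33 genes, exons overlap those of another gene by at least 100 bases on the opposite strand, and the libraries are not stated to keep strand, so reads of the 2 genes may have been mixed. The overlap was 1429 bases with Ccdc24 for Slc6a9, 998 bases with G630022F23Rik for Fgfr3, 499 bases with Gm15756 for Aldh1l1 and 377 bases with Lrp3 for Slc7a10. It was 244 bases with D030047H15Rik for Ttyh1, 189 bases with Gm13872 for Slc1a2, 171 bases with Gm49291 for Id4, 116 bases with Teddm2 for Glul and 107 bases with Gm20713 for Gpc5.

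To see whether genes of like role fell by different amounts, the log2 ratio of (FPKM + 1) of 8 pairs was formed within each library and compared between the groups with a two-sided exact permutation test over the libraries. With 4 against 5 libraries, the smallest p this test can give is 0.0159, and 5 pairs reached it, each with an adjusted p of 0.0254 over the 8 pairs. The FPKM ratio of Apoe to Clu went from 1.88 ± 0.221 in whole midbrain to 0.252 ± 0.101 in the dopaminergic libraries, a log2 difference of -2.89. That of Bcan to Ncan went from 1.5 ± 0.430 to 0.535 ± 0.0837 (-1.29), and that of Slc6a11 to Slc6a9 from 5.05 ± 0.839 to 2.08 ± 0.433 (-1.37). In these 3 pairs the first gene fell further, with all 4 dopaminergic libraries below all 5 whole midbrain libraries.

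In the other 2 pairs of the 5, the first gene was low in the dopaminergic libraries. Its mean there was 0.937 FPKM for Mlc1 and 1.32 FPKM for Sox9. Mlc1 to Hepacam went from 0.999 ± 0.133 to 0.309 ± 0.0519, a log2 difference of -1.01. Sox9 to Id4 went from 1.35 ± 0.528 to 0.326 ± 0.0372 (-1.36), with whole midbrain library 2 at 0.460, the nearest to the dopaminergic range, and with a pseudocount of 5 that pair no longer passed (-0.66, exact permutation adjusted p = 0.0907). The plain ratios of both pairs did not overlap between the groups.

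For 3 pairs the difference did not pass. The ratio of Gja1 to Gjb6 was 1.15 ± 0.260 in whole midbrain and 0.836 ± 0.228 in the dopaminergic libraries (log2 difference -0.37, exact permutation p = 0.111, adjusted 0.145). That of Gfap to S100b was 0.171 ± 0.0522 and 0.161 ± 0.0393 (0.41, exact permutation p = 0.127, adjusted 0.145), and its plain ratios overlapped. With a pseudocount of 5 this pair passed (1.11, exact permutation adjusted p = 0.0212), and with 0.1 its log2 difference was 0.0050 (adjusted p = 0.984), so no difference is read from it. For Slc1a2 to Slc1a3 the result turned on the pseudocount. The plain ratio was 7.60 to 11.6 in whole midbrain and 12.3 to 28.1 in the dopaminergic libraries, with no overlap. The log2 difference was -0.02 with a pseudocount of 1 (exact permutation p = 0.952, adjusted 0.952), 0.84 with 0.1 and -1.21 with 5 (adjusted p = 0.0212 for both), so no direction is given for this pair.

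**Figure D3:**
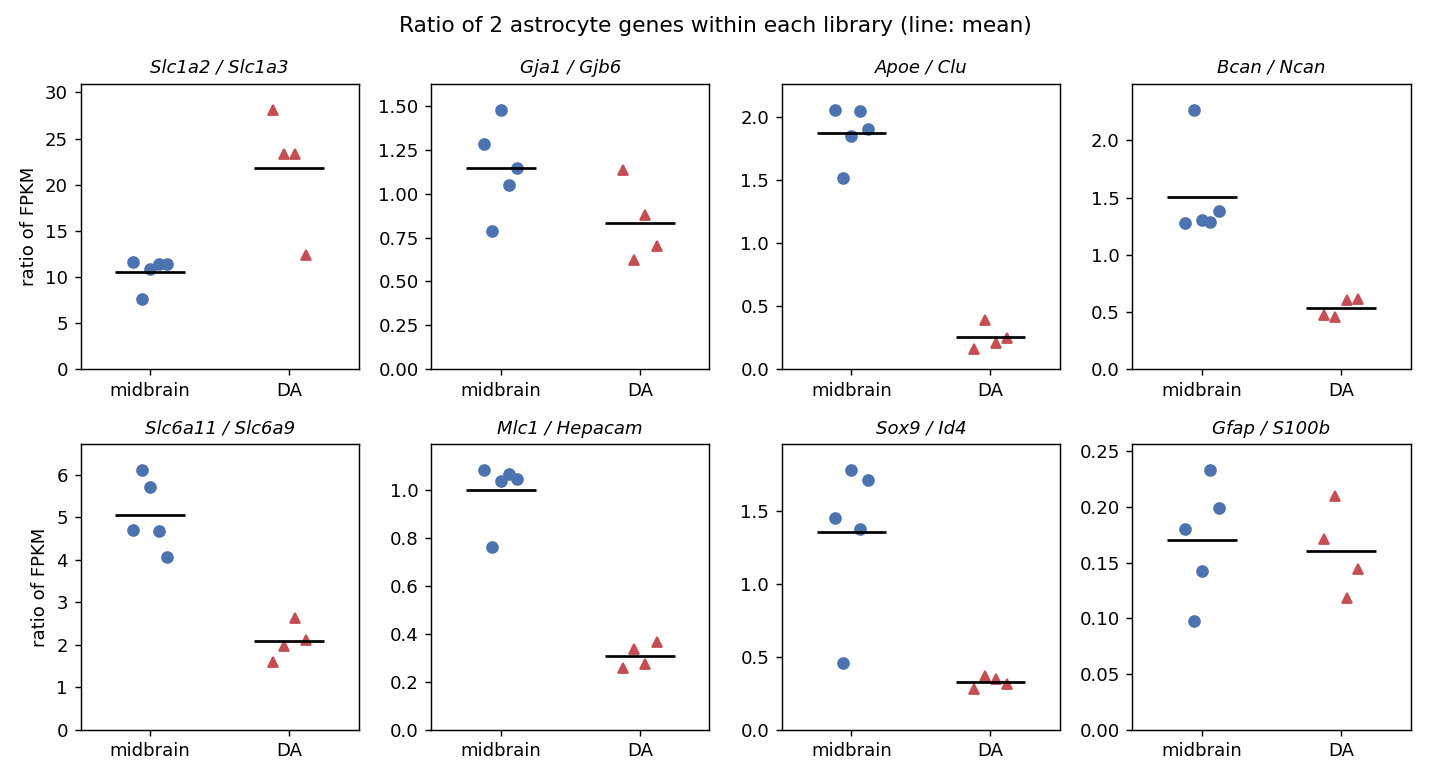
Ratio of the FPKM of 2 astrocyte genes within each library for 8 pairs, with circles for 5 whole midbrain libraries, triangles for 4 dopaminergic (DA) libraries and a line at each group's mean. The groups are apart for Apoe to Clu (1.88 and 0.252 on average) and overlap for Gfap to S100b (0.171 and 0.161).

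The 7 genes with more than 20% left were Cst3, Id4, Ttyh1, Clu, Ncan, Glul and Ndrg2, which belong to 6 of the 9 role groups. Next to them stood Slc6a9 at 19.8%, Cldn10 at 14.0%, Sox9 at 13.1% and Aldh1l1 at 10.7%. The share left was not ordered by abundance: Spearman's rho over the 33 genes was 0.13 with the whole midbrain mean and -0.01 with the number of exonic bases, given as descriptions over genes measured in the same libraries. Sparcl1 and Ndrg2, at 505 and 522 FPKM in whole midbrain, kept 3.94% and 22.0%. With dopaminergic means of 627, 115, 75.1 and 59.0 FPKM, Cst3, Ndrg2, Glul and Clu were the genes of the 33 that stood at 50 FPKM or more in the dopaminergic libraries.

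Promoter sequence was set beside the share left, since the genes fell together but not by the same amount. The 250 bases before each transcription start were read from RefSeq (GRCm38.p6, the assembly also called mm10). Windows were taken for 29 of the 33 genes, with 38 windows. Sox9, Sparcl1 and Clu were not matched. Aqp4 lies in a part of the genome that was left out of this step, so its absence says nothing about its promoter. The motif counts below do not cover these genes. Shown are the pair of genes with the most left (Cst3 and Id4) and the pair with the least (Mlc1 and Gja1) among those with 1 window, and Gfap as the best-known marker. Capitals mark GC boxes, the letters GGGCGG or, where the match is on the other strand, CCGCCC, which transcription factors of the Sp family bind. The windows are Cst3 at chr2:148875513-148875762 (minus strand), Id4 at chr13:48260866-48261115 (plus), Mlc1 at chr15:88978554-88978803 (minus), Gja1 at chr10:56377050-56377299 (plus) and Gfap at chr11:102897201-102897450 (minus), each printed 5′ to 3′ on the strand of its gene. The windows of Id4 and Cst3 end before the starts that the FPKM table gives these genes, 48261427 and 148875468, read along the strand of the gene. Those of Mlc1, Gja1 and Gfap end directly before the start in that table.
Cst3: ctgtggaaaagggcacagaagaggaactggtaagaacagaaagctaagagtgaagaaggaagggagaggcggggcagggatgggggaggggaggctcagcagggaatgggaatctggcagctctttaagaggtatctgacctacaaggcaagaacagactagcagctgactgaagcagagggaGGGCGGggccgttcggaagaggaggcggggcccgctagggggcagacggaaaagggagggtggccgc
Id4: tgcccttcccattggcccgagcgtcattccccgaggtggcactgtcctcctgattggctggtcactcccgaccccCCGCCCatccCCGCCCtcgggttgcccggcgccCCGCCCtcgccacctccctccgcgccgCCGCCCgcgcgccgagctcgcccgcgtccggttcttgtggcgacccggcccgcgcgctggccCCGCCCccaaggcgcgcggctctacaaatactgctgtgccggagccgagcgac
Mlc1: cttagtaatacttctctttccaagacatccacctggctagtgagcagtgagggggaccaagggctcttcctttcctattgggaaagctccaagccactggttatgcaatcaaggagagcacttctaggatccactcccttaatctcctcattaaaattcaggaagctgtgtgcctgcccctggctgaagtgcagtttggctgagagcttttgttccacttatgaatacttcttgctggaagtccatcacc
Gja1: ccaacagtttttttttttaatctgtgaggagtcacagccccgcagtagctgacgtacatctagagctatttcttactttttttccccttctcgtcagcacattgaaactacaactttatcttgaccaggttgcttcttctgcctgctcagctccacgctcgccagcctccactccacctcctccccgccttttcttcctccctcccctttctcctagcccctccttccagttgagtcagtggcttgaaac
Gfap: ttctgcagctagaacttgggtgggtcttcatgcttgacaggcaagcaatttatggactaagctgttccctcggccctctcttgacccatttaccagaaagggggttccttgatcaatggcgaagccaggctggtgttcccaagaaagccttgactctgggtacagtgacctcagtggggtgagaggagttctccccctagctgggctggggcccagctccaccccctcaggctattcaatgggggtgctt

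Among these 5 windows, Id4 held 5 GC boxes and 35 CpG dinucleotides at a GC content of 75.6%, and Cst3 held 1 GC box and 8 CpG at 59.6%. No GC box was found in the windows of Mlc1 (0 CpG, 48.0% GC), Gja1 (6 CpG, 50% GC) and Gfap (2 CpG, 55.6% GC). Over the 29 matched genes, 17 (58.6%) had a GC box in at least 1 window, and 19 of the 38 windows (50%) held one. Of all 32851 windows in the table, of genes read in these libraries or not, 32.7% did. With the window of most CpG taken for each gene, the median over the 29 genes was 10 CpG. The median over all single windows was 6, so the 2 medians are not like measures.

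The 17 genes with a GC box kept a median of 10.7% of their whole midbrain level, from 3.42 to 63.4%, and the 12 without one kept 5.27%, from 2.98 to 9.02%. The 9 matched genes with more than 10% left, among them Cst3, Id4, Ttyh1, Ncan, Glul and Ndrg2, all lay in the group with a GC box, as did Slc1a3 and Htra1, which kept 3.42% and 3.52%. Without whole midbrain library 2, Hepacam, which had no GC box, kept 10.3%. This split by GC box was noticed after the values were seen and was not tested. The other motifs were rarer. The TATA box (TATAAA) was found in 15.8% of the 38 windows (6 genes) and 12.4% of all windows, and the half-site of nuclear factor I (TTGGCA), a family known to act in astrocytes, in 10.5% (4 genes) and 12.3%. The SOX core (ACAATG) was found in 5.26% of the 38 windows (2 genes) and 10.7% of all windows, and the STAT element (TTCNNNGAA) in 7.89% (3 genes) and 7.02%. All motifs were searched on both strands, none of them overlaps another in its letters, and a match is only a run of letters.

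**Figure D4:**
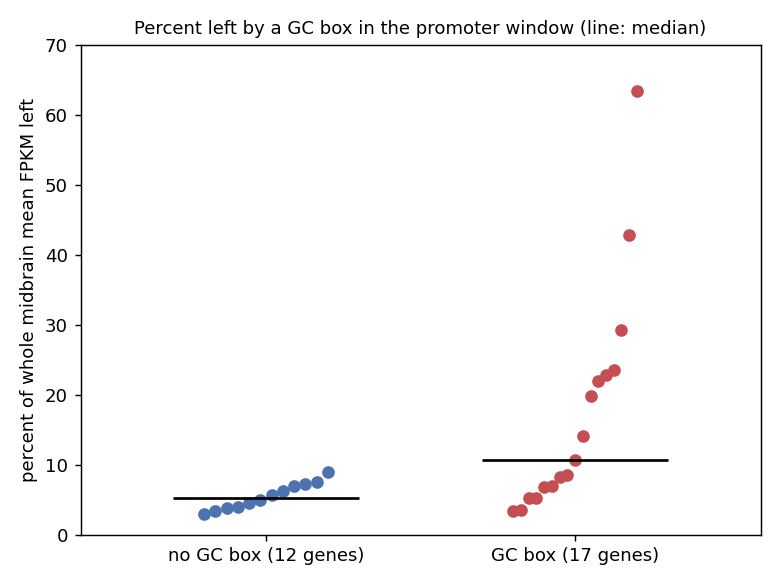
Percent of the whole midbrain mean FPKM left, for 12 astrocyte genes without and 17 with a GC box in the 250 bases before a RefSeq start (1 point a gene, ordered by value, line at the median). Genes without a GC box reach 9.02% at most, and those with one range from 3.42 to 63.4%.

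The astrocyte genes were not spread evenly over the dopaminergic libraries. Library 4 held the highest of the 4 values for 23 of the 33 genes (69.7%), against 27.8% of all genes tested, and library 1 the lowest for 21 (63.6%), against 32.2%. Slc1a3 went furthest, with 5.90% left in library 4 and 2.42 to 2.95% in the other 3. The 33 genes together made up 0.181, 0.193, 0.207 and 0.223% of the summed FPKM of dopaminergic libraries 1 to 4, and 1.15 to 1.38% of that of the whole midbrain libraries. Cst3 was 56.9 to 63.8% of the sum of the 33 genes in the dopaminergic libraries. Without Cst3 the sums were 357, 422, 390 and 462 FPKM in libraries 1 to 4, so library 2 then stood above library 3.

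Markers of other cell types of the tissue fell too. All 8 oligodendrocyte markers fell, from a sum of 2879 to 3344 FPKM to 172.6, 249, 190.3 and 292 FPKM in dopaminergic libraries 1 to 4. Among them Mbp, myelin basic protein, stood at 47.2, 76.8, 60.3 and 92.3 FPKM in these 4 libraries. All 8 microglial markers fell, from a sum of 124 to 150 FPKM to 5.38 to 9.54 FPKM, and all 7 endothelial markers, from 109 to 140 FPKM to 6.15 to 7.55 FPKM. None of these 23 markers was listed at 0 in a dopaminergic library. Library 4 held the highest of the 4 values for 7 of 8 oligodendrocyte, 2 of 8 microglial and 3 of 7 endothelial markers, against 27.8% of all genes tested. Of the 4 ependymal markers, 3 were tested and fell, led by Rarres2 (log2 change -2.31), but with quantile normalization 1 of them did. Of all genes tested, 36.0% were called lower, and 31.3% with quantile normalization. The median percent left in dopaminergic libraries 1 to 4 was 10.1, 13.3, 9.69 and 17.3% for oligodendrocyte markers, 4.05, 5.70, 5.63 and 7.02% for microglial markers and 1.17, 1.37, 0.632 and 2.11% for endothelial markers. The part of RNA from these other cells in the astrocyte result was not tested.

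**Figure D5:**
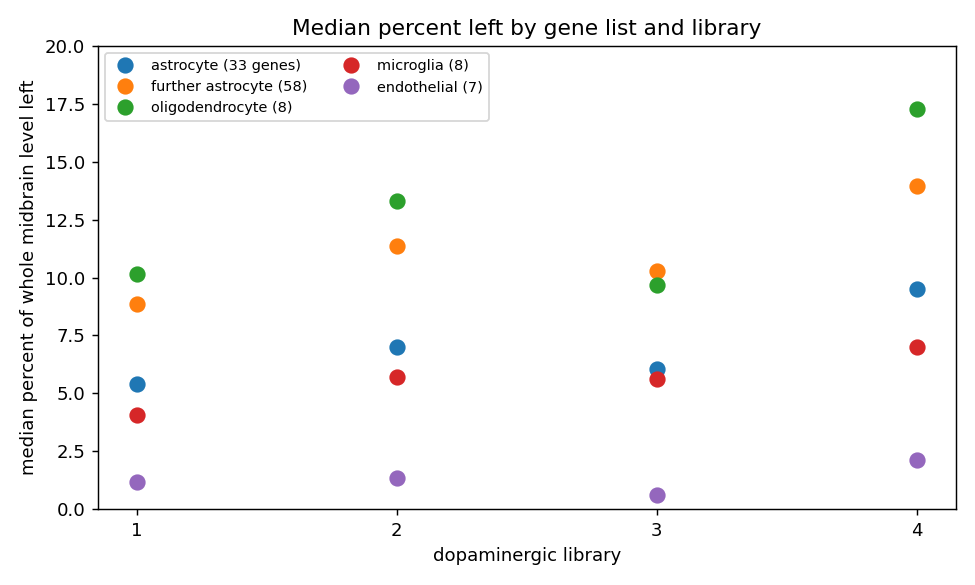
Median share left (percent, vertical axis) in dopaminergic libraries 1 to 4, for the 33 astrocyte genes, 58 further astrocyte genes and markers of oligodendrocytes, microglia and endothelial cells. Library 4 is the highest for each of the 5 lists, at 9.49% for the 33 astrocyte genes and 17.3% for oligodendrocyte markers.

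A list of 60 further astrocyte genes gave a like picture with smaller falls: of 58 tested, 55 fell, 1 rose and 2 did not pass, and the median log2 change was -2.39. Across all genes tested, 36.0% were called lower and 38.3% higher. Median percent left was 8.84, 11.3, 10.3 and 14.0% in dopaminergic libraries 1 to 4. Of the 15 tested genes of ion pumps, potassium channels and energy, 14 fell, as did 5 of 5 other transporters, 17 of 18 receptors and signals and 8 of 9 genes of transcription and Notch. Among the largest falls were those of Gpr37l1, an orphan receptor of glia, at 62.5, 48.1, 64.8, 60.8 and 66.8 FPKM in whole midbrain and 1.47, 2.83, 2.95 and 4.92 FPKM in the dopaminergic libraries (log2 change -3.99, limma adjusted p = 8.72e-08), Itih3, a hyaluronan-binding protein (-3.93), and Sdc4, a syndecan (-3.92).

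The gene that rose was Gli2, a transcription factor of hedgehog signalling, from 0.940 ± 0.130 to 1.77 ± 0.439 FPKM (log2 change 0.50, limma adjusted p = 0.00357), but it did not pass when values were rescaled to a common sum (0.19, adjusted p = 0.369). The 2 that did not pass were Prdx6, a peroxiredoxin (-0.36, limma adjusted p = 0.136), and Grin2c, an NMDA receptor subunit (-0.32, adjusted p = 0.179). They are named after their values were seen.

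Of 34 genes known to rise in reactive astrocytes, 17 reached a mean of 1 FPKM and were tested: 12 fell, 1 rose and 4 did not pass, with a median log2 change of -1.18. The shares of all genes tested were 36.0% lower and 38.3% higher. With quantile normalization 8 of the 17 fell, against 31.3% of all genes tested. The largest falls on the log2(FPKM + 1) scale, on which genes of low level count less, were those of Srgn, a proteoglycan also made by blood-derived cells (9.83 ± 2.63 FPKM in whole midbrain, log2 change -3.24), which was listed at 0 in dopaminergic library 4, Tm4sf1 (-2.68), Cp, ceruloplasmin (-2.65), and Serping1, the C1 inhibitor (-2.23). S100a10, the annexin A2 partner also known as p11, rose. It was at 38.9, 41.1, 25.9, 31.6 and 33.6 FPKM in whole midbrain and at 198, 172, 184 and 197 FPKM in the dopaminergic libraries (log2 change 2.44 ± 0.13, SE; limma adjusted p = 8.01e-08), so that all dopaminergic libraries were above all whole midbrain libraries.

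Family relatives of the 33 genes, many of them known from other cells, moved less uniformly. Of 63 relatives, 57 were tested: 43 fell, 10 rose and 4 did not pass, with a median log2 change of -1.35. Among all genes tested, 36.0% were called lower and 38.3% higher, so rises were rarer among the relatives than among genes at large. With values rescaled to a common sum, 3 of the relatives rose, against 17.2% of all genes tested. The largest rise was that of Ntsr1, the high-affinity neurotensin receptor of dopaminergic neurons, from 2.60, 2.91, 2.38, 1.6 and 2.19 FPKM in whole midbrain to 35.3, 34.9, 41.8 and 37.0 FPKM in the dopaminergic libraries (log2 change 3.53 ± 0.12, SE; limma adjusted p = 5.19e-09). Its relative among the 33 genes, Ntsr2, went the other way, so the neurotensin receptor with the higher level was Ntsr2 in whole midbrain and Ntsr1 in the dopaminergic libraries. Slc7a8, a neutral amino acid exchanger and relative of Slc7a10, rose from 7.29 ± 0.959 to 15.6 ± 0.921 FPKM (1.01), and Cst6, a relative of Cst3, from 0.448 ± 0.0691 to 1.87 ± 0.102 FPKM (0.99). Sox6 rose from 3.55 ± 0.588 to 7.22 ± 0.940 FPKM (0.86), but did not pass on the common sum (0.36, limma adjusted p = 0.115).

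The largest fall among the relatives on the log2(FPKM + 1) scale was that of Sparc, the secreted relative of Sparcl1. Its levels were 506, 793, 502, 496 and 517 FPKM in whole midbrain and 9.22, 11.8, 13.4 and 21.3 FPKM in the dopaminergic libraries (log2 change -5.27, limma adjusted p = 2.06e-08). Then came the claudins Cldn5 of blood vessels (-3.06, and with 1.69% left, below the 2.48% of Sparc) and Cldn11 of myelin (-2.94), and S100a1 (-2.81). Some relatives are named here after their values were seen. Slc1a1, the glutamate transporter of neurons, fell from 23.5 ± 2.04 to 7.39 ± 0.304 FPKM (-1.54), less far than Slc1a2 and Slc1a3. Ndrg3 rose from 127 ± 17.5 to 201 ± 9.86 FPKM (0.67), while on the common sum its change was 0.03 and with quantile normalization -0.15. Ndrg4 was at 543 ± 48.4 FPKM in whole midbrain and 697 ± 46.5 FPKM in the dopaminergic libraries (0.36), but its direction turned on the common sum (-0.28) and with quantile normalization (-0.81), so no direction is given for it. Ttyh3 rose from 15.4 ± 1.78 to 27.4 ± 3.30 FPKM (0.80), and did not pass on the common sum (0.19, limma adjusted p = 0.0828), while its relative Ttyh1 fell under every scaling tried.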

How the data were processed

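RNA was amplified to cDNA from a low input, sheared and sequenced as 100 base single-end reads, per the labels' protocols. The submitters' processing notes name TopHat2 2.0.8, Cufflinks 2.1.1 and mm10. The authors deposited 1 table of FPKM values per gene and library, and its genes are those of the table's own coordinates. FPKM are no counts, so no count model was used. After adding 1 and taking log2, groups were compared in limma 3.58.1 (R 4.3.3) with a mean-variance trend, keeping genes whose mean over the 9 libraries reached 1 FPKM, with Benjamini-Hochberg adjustment over all 13106 and a threshold of 0.05. A pseudocount of 1 understates the change of low genes. Pairs were tested by exact permutation, two-sided. Gene lists hold 33 astrocyte genes, 60 further and 34 reactive astrocyte genes, 63 relatives and markers of oligodendrocytes, microglia, endothelial, ependymal and dopaminergic cells and neurons. The 33 genes and the lists were chosen with earlier results of these data known. All 33 are named; of each other list, up to 4 passing genes with the largest falls and 4 with the largest rises, plus Th and Mbp. A result that falls under this rule is not reported here. Alternatives were other pseudocounts, filters, scalings and weights, a replicate block, and each library left out.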

Additional observations from a re-analysis of the deposited data

Results flagged for a closer look

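For the 33 astrocyte genes in the 2 groups, 66 sets of 4 or 5 libraries were searched for a library whose gap to the nearest other was too large a share of the range (Dixon's criterion at 95%), and 18 were found, where chance alone would give about 1 in 20 sets. Among all 13106 genes tested, the same criterion was met by 29.3% in whole midbrain and 5.05% in the dopaminergic libraries, against 17 of 33 (51.5%) and 1 of 33 (3.03%) here. In 16 of them the library apart was whole midbrain library 2, the library that also stood apart in its summed FPKM; it was the library apart for 27.6% of all genes tested.

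It was the high library for 13 genes. Among the membrane and junction genes, Hepacam was at 48.8 FPKM against 27.7 to 29.6 in the other 4, Cldn10 at 55.0 against 26.0 to 32.6, Ttyh1 at 121 against 87.8 to 92.4, Mlc1 at 37.2 against 29.1 to 30.8 and Ntsr2 at 92.4 against 63.4 to 70.3. Among the secreted proteins, Agt was at 83.6 FPKM against 31.7 to 36.3, Clu at 299.9 against 186 to 202, Apoe at 456 against 373 to 389, Bcan at 60.6 against 34.8 to 40.0 and Htra1 at 33.8 against 21.9 to 24.6. S100b was at 291 FPKM against 132 to 158, Glul at 383 against 309 to 323 and Id4 at 19.8 against 5.60 to 7.71.

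It was the low library for 3 genes: Slc1a2 at 186 FPKM against 307 to 314, Slc4a4 at 42.0 against 66.0 to 70.6 and Sparcl1 at 465 against 505 to 521. Over the 33 genes, Spearman's rho between the ratio of library 2 to the rest and the number of exonic bases was -0.53, a description over genes of the same libraries. Library 2 was the highest of its group for 54.5% of the 33 genes and 45.3% of all genes tested, and the lowest for 30.3% and 36.1%.

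Of the remaining 2, Gfap was at 18.7 FPKM in whole midbrain library 3 against 28.5 to 31.2 in the other 4, and Slc1a3 was at 1.59 FPKM in dopaminergic library 4 against 0.652 to 0.795 in the other 3.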

How the results depend on the processing

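Across 19 alternatives, 623 of 626 values of single astrocyte genes kept their direction and their side of the threshold, and the 3 that did not were all of Id4. Their median log2 change, -3.24, was -3.77 with a pseudocount of 0.1, -2.20 with 5, -4.20 on a common sum (TPM) and -3.43 with upper-quartile scaling, and the median left, 6.99%, was 4.46% on a common sum. That scaling moved the median of all genes from 0.04 to -0.55 and the calls from 36.0% lower and 38.3% higher to 56.4% and 17.2%. Upper-quartile scaling gave 43.3% and 29.5%, with a median of -0.16, and a minimum of 5 FPKM gave 28.8% and 48.2%, with a median of 0.26. Lower calls among reactive genes went from 12 of 17 to 23 of 34 with no filter and 5 of 8 with a minimum of 5 FPKM. Those among relatives went from 43 of 57 to 27 of 39 with that minimum. In both lists the number of genes tested changed. With no filter, 34.2% of all genes tested were lower. With quantile normalization, 8 of the same 17 reactive genes were lower, and the cause was not tested. Higher calls among relatives went from 10 to 3 on a common sum. The ependymal marker Foxj1 changed sign with quantile normalization (0.0035, adjusted p = 0.989).

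The pair Slc1a2 to Slc1a3 was 0.84 with a pseudocount of 0.1 and -1.21 with 5, and ran from -0.13 to 0.094 with 1 library left out; the pseudocount's own construction moves it, as Slc1a3 was near 1 FPKM. With a pseudocount of 5, Sox9 to Id4 was -0.66 and Gfap to S100b 1.11. The pseudocount's own construction moves these pairs too, as Sox9 and Gfap were under 5 FPKM in every dopaminergic library. With 0.1, Gfap to S100b was 0.0050 (exact permutation adjusted p = 0.984). With 1 library left out, the log2 differences ran from -3.12 to -2.71 (Apoe to Clu), -1.34 to -1.13 (Bcan to Ncan), -1.47 to -1.26 (Slc6a11 to Slc6a9), -1.10 to -0.97 (Mlc1 to Hepacam) and -1.68 to -1.24 (Sox9 to Id4). Without any 1 of the dopaminergic libraries these 5 had an adjusted p of 0.0571, since fewer libraries raise the smallest p of the exact permutation test.

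Libraries of the same number did not deviate together (correlations of -0.039, -0.050, 0.0067 and 0.019 for numbers 1 to 4), and the 4 dopaminergic libraries correlated best with whole midbrain libraries 5, 3, 5 and 2. With the number as a replicate block, 33 of 33 astrocyte genes, 54 of 58 further, 13 of 17 reactive and 42 of 57 relatives were lower. On the other side, 9 of the 57 relatives were higher. Of all genes tested, 33.2% were lower and 34.7% higher with this block. Depth is an estimate, so no counting interval is given.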
